A study of Mus musculus with 7 samples.

Results

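mmu-miR-31 and mmu-miR-31* are the guide and the star strand of 1 mouse microRNA (miRNA) hairpin, and they are 2 of the 696 mouse miRNAs carried by the array. They were chosen by their array names, with their large difference between arrays labelled treated and arrays labelled non-treated already known, so that difference is given below as a description and not tested. The study profiled miRNAs in kidneys of mice that underwent Unilateral Ureteral Obstruction (UUO), a model of renal fibrosis in which the ligated ureter blocks the outflow of urine, or a sham operation without ligation. 7 arrays were analysed here, 4 labelled non-treated (replicates 1 to 4) and 3 labelled treated (replicates 1, 3 and 4). They are called the non-treated and the treated arrays below, after these labels. All 7 hold kidney RNA of male C57BL/6 mice, 9 to 12 weeks old, with kidneys collected at day 28, and the record names no transgene and no agent besides the pentobarbital used as anaesthetic. The record describes both operations but does not state which label stands for which. The paper's legend for the array figure counts 4 mice per group, while only 3 treated arrays were available here. The record does not tie an array to 1 animal, so the spread between arrays may be partly technical.

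A miRNA hairpin is cut by Drosha and Dicer into a short duplex. One strand is loaded into an Argonaute protein and guides it to messenger RNAs that pair with its seed, while the star (passenger) strand is usually degraded, so both strands of a hairpin come from the same transcript but can differ in stability. miR-31 is known from skin and gut epithelium, where it is induced in inflammation and wound repair, and from tumours, where it has been studied as a regulator of invasion.

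The mature strands are shown because the array measures each of them with its own probes, and the capitals mark the seed, bases 2 to 8 counted from the 5′ end. Both sequences are those of RefSeq for GRCm38.p6. The array names were matched to the arm names by the usual equivalence of miR-31 with miR-31-5p and of miR-31* with miR-31-3p, since probe sequences were not used here.
mmu-miR-31 (miR-31-5p, chr4:88910614-88910635, minus strand): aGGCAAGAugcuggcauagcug
mmu-miR-31* (miR-31-3p, chr4:88910577-88910599, minus strand): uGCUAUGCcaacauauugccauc

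The guide has 22 bases and a GC content of 54.5%, and the star strand has 23 bases and a GC content of 43.5%. Among 1679 mature mouse miRNA names in the RefSeq table, each seed was held by 1 name, its own, so neither strand shares its seed with a family member there. Both strands lie in the hairpin of Mir31, shown with the 2 mature arms in capitals so that their distance and pairing can be read.
Mir31 hairpin (chr4:88910557-88910662, minus strand): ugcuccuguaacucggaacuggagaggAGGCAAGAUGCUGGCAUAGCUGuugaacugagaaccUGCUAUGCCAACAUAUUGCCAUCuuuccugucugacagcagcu

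The hairpin spans 106 bases, with the guide at bases 28 to 49, the star strand at bases 64 to 86, and 14 bases of loop sequence between them. In the fold predicted by RNAfold, 17 bases of the guide paired with bases of the star strand, at a minimum free energy of -48.7 kcal/mol. In the RefSeq annotation of the same build the hairpin lies within Gm49890, a long noncoding RNA gene. The nearest other miRNA gene, Mir491, is 788 kb away, so miR-31 is not part of a miRNA cluster.

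Each member was measured by 2 probes with 10 spots each, that is 20 spots per array. Each spot has a processed signal, an intensity from which background was subtracted but which was not normalized between arrays. Probe means were summed and scaled to give every array the same mean log2 signal over the 186 miRNAs that were detected on all 7, and then raised where needed to a floor of 1.32 on the log2 scale. The floor is the median over arrays of the lowest positive signal of a detected miRNA. Detection is the call of Agilent's software.

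On the non-treated arrays, the scaled log2 signal of miR-31 was 5.83, 5.49, 5.54 and 5.75. On the treated arrays it was 2.82, 3.03 and 2.95. The groups did not overlap, and the gap of 2.46 between the lowest non-treated and the highest treated array was several times the range within either group, 0.34 and 0.21. miR-31 was called detected on all 7 arrays.

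The scaled log2 signal of miR-31* was 4.04, 3.85, 3.85 and 4.01 on the non-treated arrays. On the treated ones it was 1.998, 1.37 and 1.39, and it was called detected on none of the 3. The groups again did not overlap, with a gap of 1.85 against ranges of 0.19 and 0.62, and the values of treated replicates 3 and 4 lay next to the floor.

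**Figure D1:**
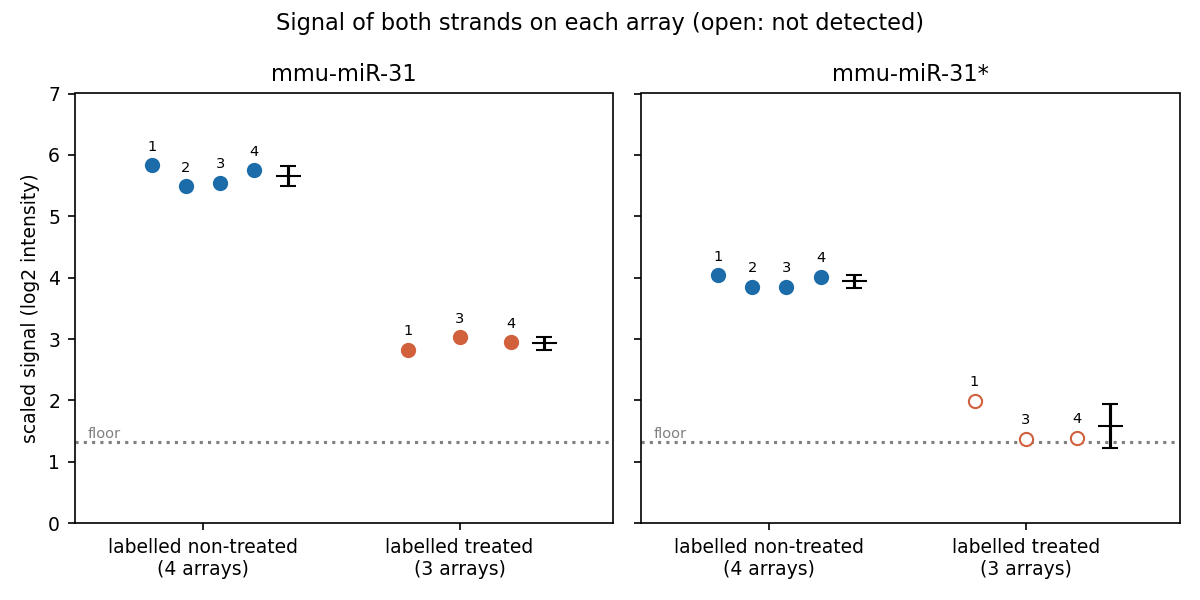
Scaled signal of mmu-miR-31 (left) and mmu-miR-31* (right) on each of the 7 arrays, on the log2 scale, with replicate numbers above the points. Filled points were called detected and open points were not, the bars give the mean and SD of a group, and the dotted line is the floor of 1.32. miR-31 lies at 5.49 to 5.83 on non-treated arrays and at 2.82 to 3.03 on the treated ones, and miR-31* lies at 3.85 to 4.04 and at 1.37 to 1.998.

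The mean of miR-31 on the non-treated arrays was 5.65 ± 0.16 (SD, n = 4), and on the treated arrays it was 2.93 ± 0.10 (SD, n = 3). The difference, labelled treated minus labelled non-treated, was -2.72 with a standard error of 0.11, that is a signal 6.59-fold lower. This direction follows the deposited labels, and the signs by label are opposite to those the paper lists for obstructed over sham kidneys, so which label stands for the obstructed kidneys is not settled here. The kidney is a mixture of cells, and in such bulk RNA a smaller share of cells that make miR-31 and less miR-31 per cell cannot be told apart.

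The mean of miR-31* was 3.94 ± 0.10 (SD, n = 4) on the non-treated arrays. On the treated ones the measured mean was 1.59 ± 0.36 (SD, n = 3), a difference of -2.35 with a standard error of 0.16, but with no detection there this level is only a bound. Against the lowest signal detected on each of those arrays, or its own signal where that was higher, miR-31* was at least 2.58-fold lower on the treated arrays. miR-31 itself was close to that limit there: its 2.82, 3.03 and 2.95 compare with lowest detected signals of 2.55, 2.42 and 2.75 on the same arrays. On the non-treated arrays the lowest detected signals were 0.99 to 1.32, so scaled signals had to be higher on the treated arrays to be detected, for any miRNA.

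The test across all miRNAs covered the 236 that were called detected throughout 1 group or both. Of these, 144 had a Benjamini-Hochberg adjusted p below 0.01 in limma, a share of 61.0%. Among the 144, 62 were higher on the treated arrays (26.3% of those tested) and 82 were lower (34.7%). The excess of lower miRNAs depends on the detection filter. With only the miRNAs detected on all arrays tested, 55 passed as higher and 56 as lower. With no detection filter, 50 passed as higher and 58 as lower. In 97 of the 236 miRNAs, 41.1% of them, every treated array lay below every non-treated array. Both members are among the 97, and since this contrast chose them nothing is read from that. The p-values measure the spread between these arrays only.

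In the order of the 236 differences, miR-31 stood 4th from the lowest, and the place of miR-31* rests on a bound. Under the scaling used here, miR-31 had the lowest difference among the 186 miRNAs detected on all arrays. The 3 miRNAs below miR-31 were miR-146b, miR-205 and miR-127, and none of them was detected on all treated arrays. miR-146b, a miRNA induced in inflammation, differed by -3.44 ± 0.20 (SE) and was detected on 0 of the 3 arrays. miR-205, an epithelial miRNA, differed by -3.35 ± 0.43 (SE) and was detected on 1. miR-127, from an imprinted gene cluster, differed by -2.88 ± 0.54 (SE) and was detected on 0, so for miR-146b and miR-127 the place in the order rests on bounds. Directly above miR-31 stood miR-199a-3p at -2.55 ± 0.09 (SE), miR-342-3p at -2.52 ± 0.10 (SE) and miR-214 at -2.51 ± 0.10 (SE). With a standard error of 0.11 for miR-31 itself, these neighbours lay within 2 standard errors of it. The order also depends on the scaling: under quantile normalization miR-31 was at -2.46 and was not the lowest of the 186. miR-199a-3p was at -2.55 or lower under each of the 6 scalings described below. Under the scaling used here, the median difference over all 236 was -0.13, and relative to it miR-31 differed by -2.59 and miR-31* by -2.22.

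**Figure D2:**
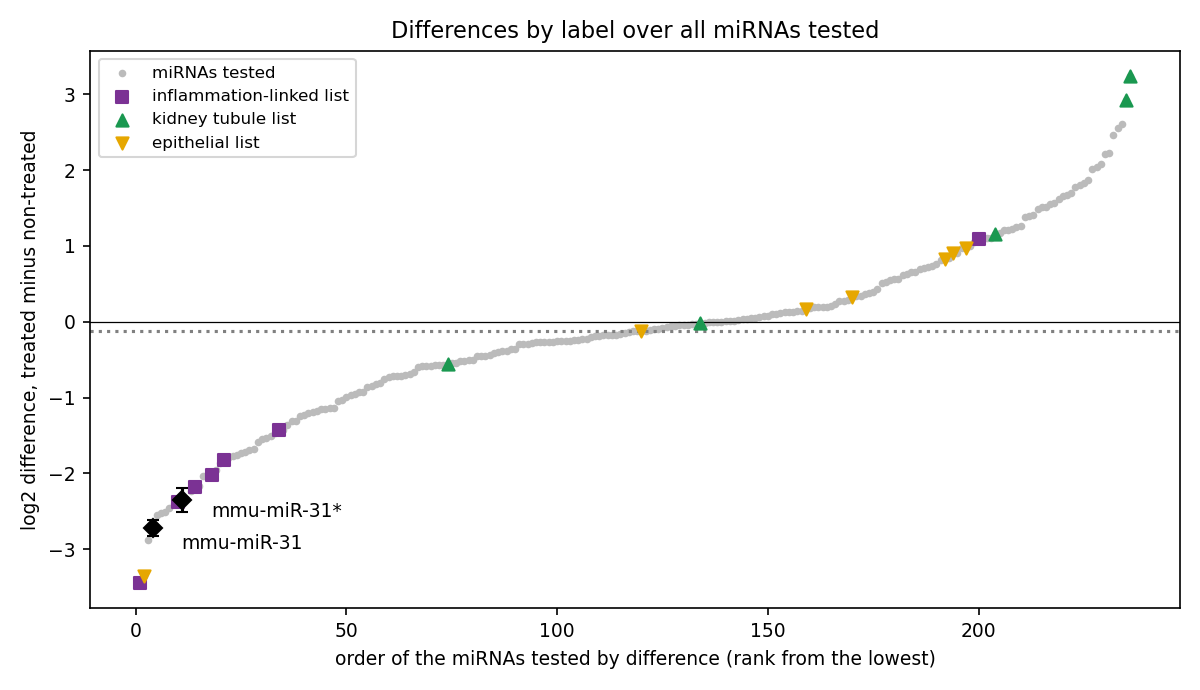
Differences in scaled log2 signal, labelled treated minus labelled non-treated, of the 236 miRNAs tested, ordered from the lowest. Diamonds with standard errors mark mmu-miR-31 at -2.72 and mmu-miR-31* at -2.35, coloured symbols mark the members of 3 lists of miRNAs, and the dotted line is the median of -0.13. Both strands lie at the low end.

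Before any scaling, the processed intensity of miR-31 was 89.1, 76.7, 43.6 and 84.7 on the non-treated arrays and 4.34, 6.52 and 3.96 on the treated ones. The means were 73.5 ± 20.6 (SD, n = 4) and 4.94 ± 1.38 (SD, n = 3), a ratio of 14.9. For miR-31* the intensity was 25.8, 24.6, 13.5 and 25.5 against 2.46, 2.07 and 1.35. Non-treated replicate 3 was the dimmest of its group for both strands and still lay well above every treated array. The arrays as a whole also differed before scaling: the mean log2 signal of the 186 miRNAs was 6.65 to 7.52 on the non-treated arrays and 5.79 to 6.42 on the treated ones. The 27 spike-in control probes averaged 11.33 to 12.08 and 10.91 to 11.48 on the log2 scale, and here the ranges overlapped. The part of this unequal brightness in the difference of miR-31 was not tested beyond the scalings given below. All arrays lay on 1 slide and were read in 1 scan, and no spot was saturated.

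The 2 probes of miR-31 both separated the labels spot by spot once spots marked as outliers were left out. For probe A_54_P1322 the mean intensity was 28.9 to 62.5 on non-treated arrays and 3.26 to 4.63 on the treated ones. Its lowest spot on any non-treated array was 21.9, above its highest spot on any treated array, 6.55. For probe A_54_P1323 the means were 14.7 to 26.6 and 0.702 to 1.89, with a lowest non-treated spot of 11.3 and a highest treated spot of 2.88, again without the outlier spots. The scaled difference was -2.53 for the first probe and -2.66 for the second, which was at the floor on all 3 treated arrays and differed by -3.31 without the floor.

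The probes of miR-31* separated the labels in the same way, outlier spots aside. Probe A_54_P3474 had mean intensities of 5.64 to 8.59 on non-treated arrays and of 0.346 to 0.844 on the treated ones, and its lowest and highest spots were 4.08 and 2.04. Probe A_54_P3475 had means of 7.87 to 17.3 and of 1.002 to 1.61, with spots of 5.90 and 2.99 at the edges. With the floor these probes differed by -1.08 and -1.98, and without it by -2.58 and -2.24, so the size for the star strand depends on how signals near background are treated.

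Agilent's software also marks each spot that is well above background. For miR-31 all 20 spots had that mark on each non-treated array, against 1, 4 and 0 of 20 on treated replicates 1, 3 and 4. For miR-31* the marks were on 20, 20, 17 and 20 spots against 0 on each treated array. A second yardstick is the 95th percentile of the negative control spots, 0.578 to 1.11 across the arrays. On the treated arrays, 15, 19 and 15 of the 20 miR-31 spots lay above it, as did 13, 12 and 11 of the 20 miR-31* spots. For miR-31* this is 65%, 60% and 55% of its spots, where all spots of undetected miRNAs on the same arrays gave 24.7%, 23.8% and 24.6%. Of the 493, 482 and 503 undetected miRNAs on these arrays, 23, 26 and 37 had a share at least as high, miR-31* included. miR-31* was thus not called detected on the treated arrays, but its spots passed the negative control limit more often than those of undetected miRNAs as a whole.

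**Figure D3:**
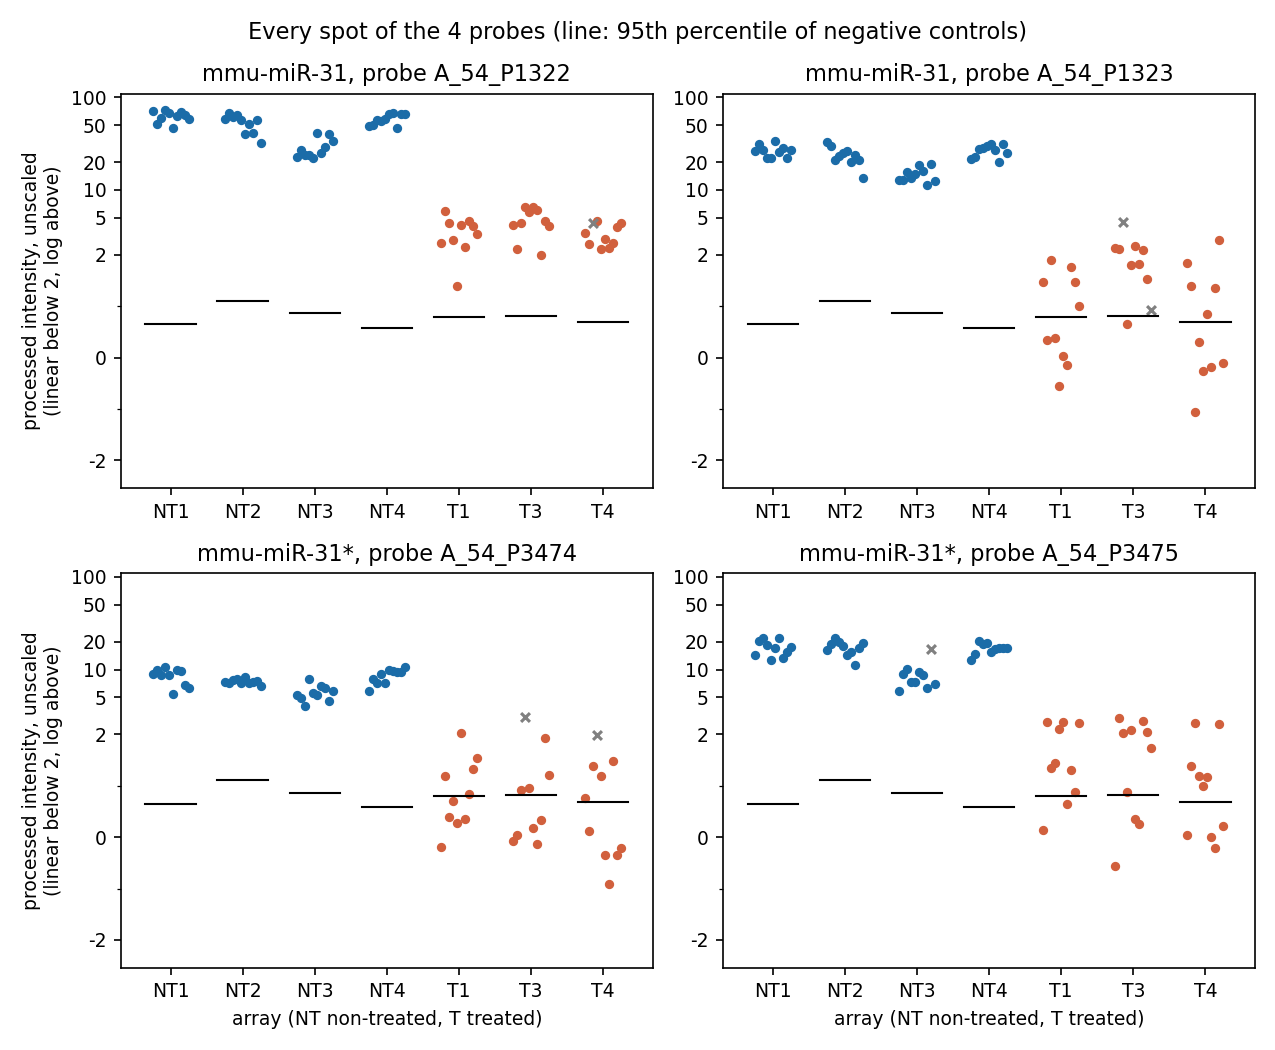
Processed intensity of every spot of the 4 probes, unscaled, on each array (NT labelled non-treated, T labelled treated), on an axis that is linear below 2 and logarithmic above. Crosses are spots marked as outliers by Agilent's software, left out of the means, and the black lines give the 95th percentile of the negative control spots of each array. Outliers aside, the lowest non-treated spot of each probe (21.9, 11.3, 4.08 and 5.90) lies above its highest treated spot (6.55, 2.88, 2.04 and 2.99).

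The arrays sat in 2 rows of the slide, and each row held both labels. In the first row, with non-treated replicates 1 and 2 and treated replicate 1, miR-31 differed by -2.84 and miR-31* by -1.94. In the second row, with non-treated replicates 3 and 4 and treated replicates 3 and 4, the differences were -2.66 and -2.55. Both strands were lower on the treated arrays in each row.

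The level of the guide relative to the star strand was followed within arrays, as miR-31 minus miR-31* in log2 signal, and is read only as a change, since the probes of different strands bind differently. It was 1.79, 1.64, 1.69 and 1.73 on the non-treated arrays and 0.82, 1.65 and 1.56 on the treated ones. Treated replicate 3 lay within the non-treated range, treated replicate 4 just below it and treated replicate 1 far below it. The change of -0.37 in the mean rests mostly on that 1 array. Without treated replicate 1 the change was -0.11. As miR-31* had only a bound on all 3 treated arrays, no shift between the strands could be measured.

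16 hairpins had both a guide and a star strand among the miRNAs tested. Among the 15 hairpins other than that of miR-31, the strands had the same sign in 14, both passed the test in 11, and in none did they pass in opposite directions. Both were higher on the treated arrays in 10 of these and lower in 1, miR-21, a split that moved to 0 and 4 with no scaling. The hairpin of miR-31, chosen for its difference, had the lowest guide value of the 16 under each of the 6 scalings tried. These were the one described above, the 75th percentile of the same miRNAs, the mean of all miRNAs, quantile normalization, the spike-in controls and no scaling. miR-21, a miRNA known for its rise in injured and fibrotic tissue, came next, with -2.18 for the guide. Its star strand, at -1.67, was not detected on any treated array either, so both star values are bounds and their order is not determined. The next guides were miR-322 at -0.40 with -0.23 for its star strand, and miR-140 at -0.27 with -0.18. Guide minus star had a median of -0.03 over the 16 hairpins, miR-31 included, and ran from -0.51 for miR-21 to 0.40. As the star values of miR-31 and miR-21 are bounds, nothing is read from the place of miR-31, at -0.37, in that range.

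**Figure D4:**
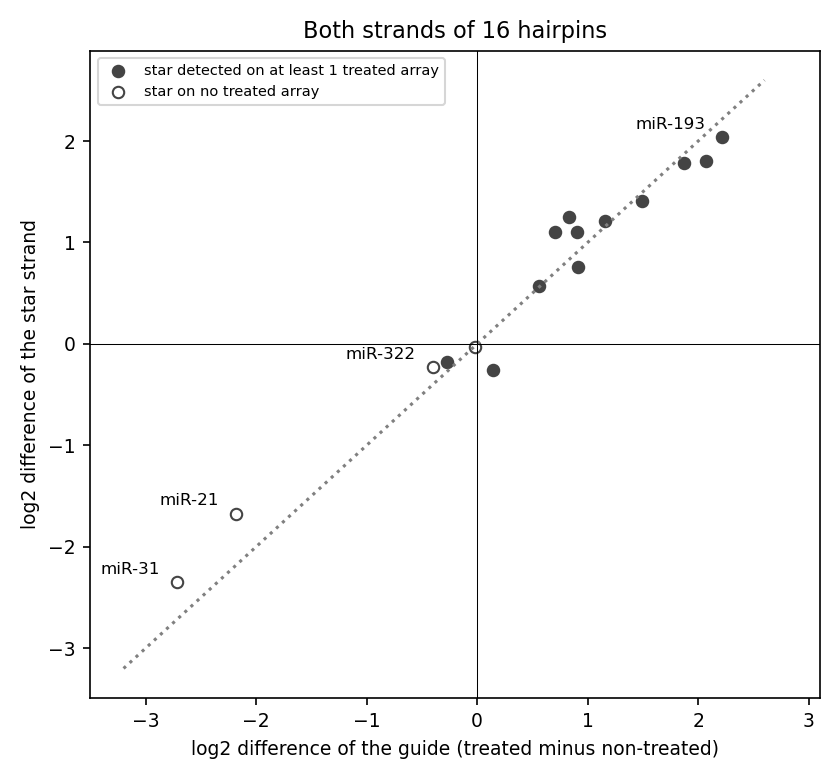
Difference of the guide (horizontal) and of the star strand (vertical) in scaled log2 signal, labelled treated minus labelled non-treated, for the 16 hairpins with both strands tested. Open points are star strands detected on no treated array, and the dotted line marks equal differences. miR-31 lies at -2.72 and -2.35 and miR-21 at -2.18 and -1.67, and the star values of both are bounds.

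The likeness of other miRNAs to miR-31 was measured as Pearson's r of the log2 signal over the 7 arrays, among the other 185 miRNAs detected on all of them. It is a description: the arrays form 2 separate groups, so any miRNA with a large and even difference has an r near 1 or -1, and all signals of an array share its RNA and its scaling. The highest r values were 0.998 for miR-199a-5p, let-7i and miR-199a-3p, 0.997 for miR-183 and 0.996 for miR-223. Of these, miR-199a-5p and miR-199a-3p are on the mesenchymal list described below and miR-223 on the white blood cell list, while let-7i and miR-183 are on no list. The lowest were -0.999 for miR-30e and -0.997 for miR-101a and miR-29c*. r was above 0.95 for 34 of the 185 miRNAs, and it was 0.98 for miR-31*. For the deviations from the group means, which leave the difference between labels out, the highest r were 0.926 for miR-34c, 0.864 for let-7i and 0.863 for miR-689, again over 7 arrays. let-7i was among the highest by both measures of likeness, and its own difference of -1.23 ± 0.09 (SE) was smaller than that of miR-31.

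Because miR-31 is known from inflamed epithelium, lists of inflammation-linked, epithelial and cell type miRNAs were set beside it. These lists were written with earlier results of these data known and are described by counts only. Of the 8 inflammation-linked miRNAs, all 8 were on the array and 7 were tested, miR-9 being the exception. All 7 passed the test, 6 of them lower on the treated arrays and 1 higher, with a median difference of -2.02 against -0.13 over all miRNAs tested. Of all 236 miRNAs tested, 61.0% passed and 34.7% passed as lower, and with no scaling 167 passed as lower. The 6 lower miRNAs of the list passed in that direction under each of the 6 scalings. They were miR-21 (-2.18), miR-125b-5p (-1.43), miR-132 (-2.38), miR-146a (-2.02), miR-155 (-1.82) and miR-146b, which was at least 6.86-fold lower. miR-146a and miR-155 are induced by NF-κB in immune signalling and miR-132 by CREB. The higher one, miR-212-3p (1.09), lies next to miR-132 in the genome, and its direction depends on the scaling: it passed as higher in 4 of the 6 and differed by -0.067 with no scaling.

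The epithelial miRNAs were mixed. Of 7 tested, 3 were higher on the treated arrays, namely miR-200a (0.83), miR-200b (0.90) and miR-429 (0.97), all of the miR-200 family that keeps cells epithelial. 1 was lower, miR-205 (-3.35), and the other 3, miR-200c (-0.12), miR-141 (0.33) and miR-203 (0.17), did not pass. The list's median was 0.33. Over all miRNAs tested, 26.3% passed as higher and 34.7% as lower. The direction of the 3 higher ones depends on the scaling: with no scaling they differed by -0.33, -0.25 and -0.18, and relative to the median of all miRNAs, which was then -1.22, they still lay above it. miR-31 and miR-205 lay below that median under every scaling. miR-210, the miRNA induced by hypoxia, differed by -0.17 ± 0.16 (SE), with an adjusted p of 0.351 in limma. Across the 6 scalings it ran from -1.33 to 0.10 and was lower and past the threshold in 3.

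Markers of several cell types moved between the labels along with miR-31, and their part in its difference was not tested. All 5 mesenchymal miRNAs passed the test and were lower on the treated arrays under each scaling, with a median of -2.41. Of all miRNAs tested, 34.7% were lower under the scaling used here and 167 of the 236 with no scaling. The mesenchymal miRNAs' summed scaled intensity ran from 2530 to 2867 on the non-treated arrays and from 574 to 589 on the treated ones. All 6 white blood cell miRNAs were also past the test and lower under each scaling, with a median of -1.89 and sums of 1398 to 1779 and of 339 to 352. Among the kidney tubule miRNAs, miR-192 (3.24) and miR-194 (2.92) were higher under each scaling and miR-30a (1.16) was higher but differed by 0.0029 with no scaling, while miR-204 (-0.56) was lower. miR-10a (-0.02) did not pass and miR-215 was not detected on any array. Their sums were 2606 to 3084 and 6497 to 6703.

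Both red blood cell miRNAs on the array, miR-144 (2.61) and miR-451 (1.65), passed the test and were higher on the treated arrays, with sums of 1079 to 2329 and of 4615 to 5118. miR-144 passed as higher in all 6 scalings and miR-451 in 5, as it differed by only 0.50 with no scaling. Just 1 of them passed with Bonferroni adjustment, and 1 with no detection filter. Of all 236 miRNAs tested, 26.3% passed as higher, and 8 did with no scaling. Of the muscle miRNAs, miR-1 (-0.72) and miR-133b (-0.92) did not pass and miR-133a was not tested, with sums of 16.8 to 54.8 and of 17.6 to 18.5. miR-1 passed in 4 and miR-133b in 2 of the 6 scalings, and without non-treated replicate 3 there were 3 muscle miRNAs past the threshold. Of the keratinising epithelium miRNAs, miR-205 was lower, miR-203 did not pass and miR-184 was detected on no array, with sums of 61.6 to 176 and of 45.8 to 53.3. The tubule miRNAs other than miR-215 were detected on every array, but no other tissue was compared, so this does not identify the tissue.

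**Figure D5:**
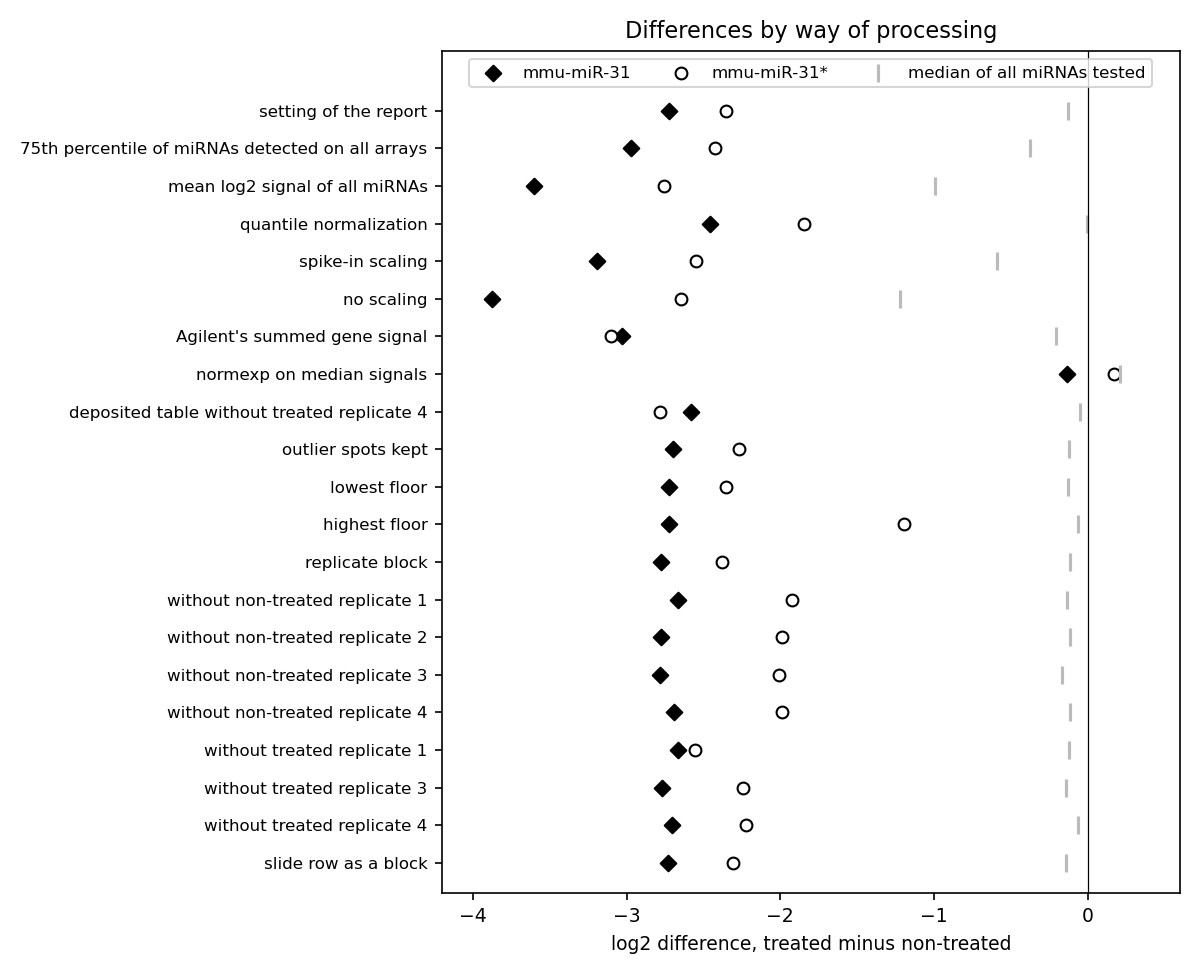
Difference of mmu-miR-31 (diamonds) and mmu-miR-31* (circles) in log2 signal, labelled treated minus labelled non-treated, under the ways of processing plotted, with the median of all miRNAs tested as a grey bar. miR-31 lies between -3.88 and -2.46 in all plotted except normexp with an added offset of 50, where it is -0.13. miR-31* ranges from -3.10 to -1.19 there, and is 0.17 under normexp. Single probes are not plotted.

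The size of both differences moved with the scaling, as did the median of all miRNAs. Under the 6 scalings tried, no scaling included, miR-31 differed by -3.88 to -2.46 and the median of all miRNAs tested by -1.22 to -0.00285. Relative to that median, miR-31 stayed between -2.66 and -2.45, and miR-31* ran from -2.22 to -1.43. Under normexp background correction of the median spot signals, with an added offset of 50, the difference of miR-31 was -0.13 and that of miR-31* was 0.17. The median of all miRNAs tested was then 0.21, and relative to it miR-31 differed by -0.34 and miR-31* by -0.04.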

How the data were processed

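Total kidney RNA labelled with Cy3 was hybridized to 1-colour Agilent mouse miRNA arrays. The files deposited by the authors come from Agilent Feature Extraction (version 10.7.3.1 in the submitters' processing notes) and give for each spot a processed intensity, linear and background-subtracted but not normalized between arrays. A deposited table of processed values holds the processed intensity of the first spot of each of 1937 probes for 6 arrays (relative tolerance 1e-05). For treated replicate 4 it holds the error estimate instead, so that 1 column was not used. Arrays carried 13920 spots, and 232 to 282 miRNAs were called detected on the non-treated arrays against 193 to 214 on the treated ones. Precision is limited by the number of arrays.

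Spots without outlier flags were averaged per probe and summed per miRNA, with control spots left out, then scaled, floored and taken as log2. The study's methods scale each array to its mean, and here that mean was taken over the 186 miRNAs detected on all arrays. The floor used the lowest positive signal of a detected miRNA, since 1 detected miRNA on treated replicate 4 had a sum that was not positive. limma 3.58.1 in R 4.3.3 compared the labels, 2-sided, over 236 miRNAs, with group as the only term and a Benjamini-Hochberg adjusted p below 0.01. Only the limma comparison was tested on simulated data, made as scaled log2 signals of miRNAs detected on all arrays. The spot averaging, scaling, floor and detection filter were not tested in this way. The hairpin was folded with RNAfold 2.7.2, and Python 3.11.15 was used for the rest. Arrays of a group correlated at 0.990 to 0.998 over the 186 miRNAs and arrays of different groups at 0.896 to 0.918. The log2 differences between arrays of a group had an SD of at least 1.34 times that expected from their spots, which does not tell a repeat hybridization from a separate sample. Arrays were counted as separate samples, as the record lists them.

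The members and lists were chosen with earlier results of these data known. Besides the members and the lists (inflammation-linked, epithelial, hypoxia-induced, kidney tubule, mesenchymal, white blood cell, red blood cell, muscle and keratinising epithelium), the miRNAs named are the 5 most and 3 least like miR-31 over the arrays, the 3 most like it within groups, its 3 neighbours on each side in the order of differences, and the 3 hairpins with the nearest guide differences. miR-212 was matched as miR-212-3p, its arm name on the array, after its value was seen, and miR-486 was not matched by name. The alternatives covered scaling, signal column, background correction, floor, detection filter, test, threshold, single probes, a block for the replicate number, and leaving out each array. A block for the slide row and the methods' t-test without adjustment were added after seeing the data. normexp used median spot signals. The study's human, PCR and serum data were not analysed here.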

Additional observations from a re-analysis of the deposited data

Results flagged for a closer look

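Non-treated replicate 3 lay far from the other 3 arrays of its label in 3 of the 11 measures examined for a single distant array (gap to the nearest array over the range of the group, against Dixon's critical value for 4 samples). Its unscaled intensity of miR-31* was 13.5, where the others were at 24.6 to 25.8. Over the miRNAs detected throughout, its mean log2 signal was 6.65 and that of the others 7.40 to 7.52, and the mean log2 signal of the spike-in controls was 11.3 against 12.02 to 12.08. Chance alone flags about 5% of such groups. After scaling, neither strand stood apart on that array, at 5.54 for miR-31 and 3.85 for miR-31*, and without it miR-31 differed by -2.78 and miR-31* by -2.01. Leaving out non-treated replicate 1, 2 or 4 instead gave -1.93, -1.99 and -1.99 for miR-31*, so the smaller difference of the star strand is not particular to replicate 3.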

How the results depend on the processing

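miR-31 was lower on the treated arrays under every alternative run, and miR-31* under every one except normexp. For miR-31 the log2 difference was -2.97 with the 75th percentile, -3.60 with the mean of all miRNAs, -2.46 with quantile normalization, -3.19 with spike-in scaling, -3.88 with no scaling, -3.03 with Agilent's summed signal, -0.13 with normexp, -2.58 with the deposited table without treated replicate 4, and -2.53 for probe A_54_P1322 alone. For miR-31* it was -2.76 with the mean of all miRNAs, -1.84 with quantile normalization, -2.64 with no scaling, -3.10 with Agilent's summed signal, 0.17 with normexp, -2.78 with the deposited table, -1.19 with the highest floor, and -1.08 and -1.98 for probes A_54_P3474 and A_54_P3475 alone. The change of miR-31 minus miR-31* was -0.85 with the mean of all miRNAs, -1.23 with no scaling, -1.53 with the highest floor, and had the other sign with Agilent's summed signal, 0.075, and with the deposited table, 0.20. Agilent's summed signal of the undetected miR-31* was 0.1 on each of the 3 treated arrays, so the -3.10 and the 0.075 rest on a bound. Leaving out 1 array gave -2.78 to -2.66 for miR-31, -2.56 to -1.93 for miR-31* and -0.79 to -0.11 for the change between strands. For miR-31* this was -2.01 to -1.93 without a non-treated array and -2.56 to -2.23 without a treated one. Each time the floor was set anew from the arrays kept, and the star strand lies near it. The cause of these shifts was not tested.

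The number of miRNAs past the threshold, 144, was 94 with the deposited table, 84 with Bonferroni adjustment and 126 to 157 with 1 array left out. The number higher on the treated arrays, 62, was 25 with the mean of all miRNAs, 8 with no scaling, 39 with Bonferroni adjustment and 54 to 61 with 1 array left out. The number lower, 82, was 173 with the mean of all miRNAs, 147 with spike-in scaling, 167 with no scaling, 53 with normexp, 48 with the deposited table, 45 with Bonferroni adjustment and 67 to 96 with 1 array left out. All 7 inflammation-linked miRNAs tested were past the threshold with any 1 array left out, and 4 were with normexp. With the replicate block, miR-31 differed by -2.77, miR-31* by -2.38 and their change by -0.39, and 126 miRNAs passed, 56 higher and 70 lower. Deviations of same-numbered arrays correlated at -0.00057, -0.022 and 0.19, so the numbers were not taken to pair the samples. With the slide row as a block, added after seeing the data, miR-31 differed by -2.73 and miR-31* by -2.31. miR-31* was not among the miRNAs detected on all arrays, so that filter gave no value for it. The signal over background on the treated arrays limits the size of both differences, since miR-31 lay just above the lowest detected signals there and miR-31* below detection.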
